A study of Mus musculus with 6 samples.

Results

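The comparison described here set an Oct4-cherry clone that the labels mark as low, named cl2.5, against the Oct4-cherry line it is named after. Both are mouse induced pluripotent stem (iPS) cells, made by reprogramming somatic cells to pluripotency. The clone was measured on 2 Illumina bead arrays and the iPS line on 2, 4 of the 6 arrays in the series, and the other 2 arrays held embryonic stem (ES) cells. A gene was taken when its probe had a detection p below 0.05 on 2 or more of the 6 arrays, which left 12631 genes from 45281 probes. Differences are the low clone minus the iPS line on the log2 scale of normalised intensity, with the standard error after the ± sign, so that 1 is a doubling.

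Per the labels, the iPS line is PB-Oct4.2A.cherry iPS-/- and the clone has the same name with the words (low) and cl2.5 added, both of strain B6, as are the ES cells. Construct names of this form join Oct4 to the red fluorescent protein cherry, and the labels do not say which gene the -/- refers to. All 3 lines grew in medium with knockout serum replacement, LIF, the GSK3 inhibitor CHIR99021 at 3 µM and the MEK inhibitor PD0325901 at 1 µM. The submitters describe both samples of each line as biological replicates. Each kind of cell is 1 line or clone, so the tests measure the spread between samples of a line and not that between clones.

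Oct4, encoded by Pou5f1, is a POU-domain transcription factor that binds an octamer sequence in DNA, often side by side with Sox2, and is required for the pluripotent state. In mouse ES cells its amount is known to matter: loss leads towards trophectoderm and an excess towards primitive endoderm and mesoderm. The medium used here holds mouse cells in the naive state by blocking ERK signalling and sparing beta-catenin.

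Between 35.9% and 37.5% of probes were detected on an array, and the deposited intensities had similar medians on all arrays, the lowest at 87.3. Over the tested genes the 2 low clone arrays correlated at r = 0.989 and the 2 iPS arrays at 0.983, while the low clone and iPS arrays correlated at 0.958 to 0.977. These correlations are across genes, which are not independent replicates. All 12 pluripotency markers were detected on both arrays of both lines. Their summed normalised level was 67860 to 72185 in the low clone and 69610 to 71889 in the iPS line. These sums rest mostly on the brightest probes, such as Dppa5a at 14.84 to 15.02, so a change in a dimmer marker such as Pou5f1 hardly shows. Of 9 fibroblast and feeder markers, 7 were undetected on both arrays of the low clone and 5 on both of the iPS line, among them Col1a1, Col3a1, Postn, Lum and Dcn in both. Acta2 (smooth muscle actin), by its brightest probe, and Col1a2 were undetected in the low clone and detected on both iPS arrays. Acta2 was at 4.49 and 4.59 against 7.88 and 6.56 without passing the test (-2.67 ± 0.86, adjusted p = 0.182), while Thy1 was detected on both low clone arrays and 1 iPS array. Other, dimmer Acta2 probes gave -0.35, -0.40 and -0.46.

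Pou5f1 was lower in the low clone than in the iPS line. Its normalised log2 level was 8.97 and 8.87 on the low clone arrays, 10.96 and 11.03 on the iPS arrays and 12.18 and 12.21 on the ES arrays. The 3 lines did not overlap, and the low clone was the lowest. The fall was 2.07 ± 0.17 on the log2 scale, or 4.21-fold (limma, adjusted p = 0.00416). A second, slightly dimmer Pou5f1 probe gave -1.70. The table holds no probe sequences, so whether the probes read the construct, the cell's own gene or both is not known here.

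The other genes of the core network stood closer together. Nanog, the homeobox factor of the naive network, was at 12.80 and 12.77 in the low clone and 12.18 and 12.66 in the iPS line. Sox2, the DNA-binding partner of Oct4, was at 9.18 and 9.46 against 9.51 and 9.63. Neither passed the test: the differences were 0.36 ± 0.22 for Nanog and -0.25 ± 0.19 for Sox2, whose second, dim probe went the other way at 0.84. Esrrb, a nuclear receptor of the same network, differed by -0.43 ± 0.17, Klf4 by -0.53 ± 0.25 and Zfp42 (Rex1) by -0.02 ± 0.31, and none passed. Neither of the 2 Myc probes was detected on any array.

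Of 16 core pluripotency genes tested, Pou5f1 was lower, none was higher, and the median difference was -0.28 against -0.02 over all 12631 genes. Fbxo15, an F-box gene bound by Oct4 in mouse ES cells, lay at 12.94 and 12.99 in the low clone and 12.22 and 12.32 in the iPS line, without passing (0.70 ± 0.17, adjusted p = 0.0915). Lin28a, which blocks maturation of let-7 microRNAs, differed by -1.19 ± 0.28 (adjusted p = 0.0889). Of 14 naive pluripotency genes none passed, and the median was -0.28. The members with the smallest p went opposite ways. Gbx2, a homeobox target of STAT3, was at 8.40 and 8.12 in the low clone and 11.04 and 10.01 in the iPS line (-2.26 ± 0.46, adjusted p = 0.0559). Dppa3 (Stella), a maternal factor that protects DNA methylation, was at 9.13 and 10.45 against 6.02 and 7.23 (3.16 ± 0.79, adjusted p = 0.1). The arrays of the lines did not overlap for either.

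**Figure D1:**
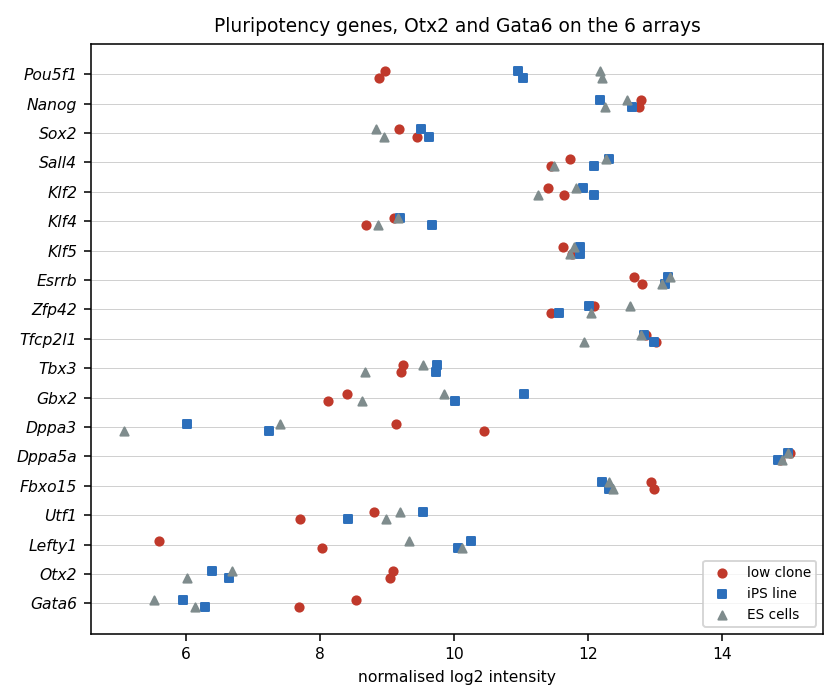
Normalised log2 intensity (horizontal axis) of pluripotency genes, Otx2 and Gata6 on each array, with circles for the low clone, squares for the iPS line and triangles for ES cells. Pou5f1 separates the 3 lines, with the low clone lowest at 8.87 to 8.97, while Nanog, Sox2, Esrrb and Zfp42 of the low clone lie within about 1 log2 unit of the iPS line.

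Across all genes, 283 of 12631 passed an adjusted p under 0.05, which is 2.24%. The low clone was higher for 146 (1.16%) and lower for 137 (1.08%). The median size was 1.59 among the higher genes and 1.55 among the lower ones, 40 rises and 37 falls were over 4-fold, and 9 rises and 3 falls over 8-fold. For many called genes one line gave no signal above background: the iPS line was undetected on both arrays for 46 of the 146, and the low clone for 27 of the 137. Some of these, such as Klra1, Slc1a1, Usp29 and Itga1, were undetected in ES cells too, so they were tested only through the low clone arrays where they were high. Without the detection filter 58 of the 283 calls were kept. The 2 arrays of a line did not overlap those of the other for any of the 283, as for 6170 of all genes (48.8%). The count of calls was also taken with 1 array left out. A line is then left with 1 sample, which is assumed to vary like the other lines, and the residual degrees of freedom drop from 3 to 2. With low clone array 2 left out no gene passed (509 higher and 597 lower at an unadjusted p under 0.05), without low clone array 1, 5 higher and 7 lower did, without iPS array 1, 20 and 11, and without iPS array 2, 139 and 110. Every called gene that could be retested kept its direction in each of those fits. Arrays that do not overlap leave the sign little room to change when 1 is left out, so this adds no support. For 87 called genes another probe was also detected, and 111 of 112 such probes had the same sign as the one used. This counts signs and not sizes. Some of these probes were dim and differed little, such as those of Slc7a3 (-0.28 against -2.45 by the probe used) and Hopx (-0.27 against -2.53). Others were close in size, such as that of Actn2 (3.48 against 3.20).

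The 25 largest named rises held surface receptors, enzymes, transporters and transcription factors. Rgcc, a regulator of the cell cycle and a p53 target, was at 9.57 and 10.36 in the low clone and at 4.95 and 5.94 in the iPS line. It was the largest rise among them, 4.52 ± 0.39 or 23.0-fold, from a level that was detected on 1 of the 2 iPS arrays. ES cells lay at 8.82 on average, between the iPS line and the low clone. Of 12 p53 targets tested Rgcc alone passed, and the list's median was 0.21.

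Several surface proteins rose from no detected signal. Where a probe was undetected on both arrays of one line, the change is a bound. On each array of that line the probe was set to the dimmest detected signal unless its own was higher, and the brighter line's mean was divided by the mean of these floors. Klra1, the natural killer cell receptor Ly49A, was at 8.84 and 8.33 in the low clone and at 4.79 and 4.70, undetected, in the iPS line, at least 11.1-fold higher (adjusted p = 0.00184). Art3, of the ADP-ribosyltransferase family, was at 8.33 and 8.71 against 4.57 and 5.04, at least 10.7-fold higher. Ffar2, a receptor for short-chain fatty acids, was at 8.05 and 8.12 against 4.61 and 5.03, at least 7.89-fold higher. For all of these the ES cells too lay near the undetected level, at means of 4.54 to 4.71. Ly6a (Sca-1), a GPI-anchored marker of haematopoietic stem cells, was measured in both lines, at 10.54 and 11.73 against 7.09 and 8.01 (3.58 ± 0.47). Its lowest low clone array was more than 2 log2 units above its highest iPS array. Parm1, a mucin-like membrane protein, rose by 2.66 ± 0.33, and the sialyltransferase St6gal1 by 2.62 ± 0.47.

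Enzymes and transporters were found among the rises as well as among the falls described further on. Slc1a1, a glutamate and aspartate transporter, was at 8.09 and 7.32 in the low clone and undetected at 4.50 and 4.66 in the iPS line, at least 6.07-fold higher. Gpat3, which starts triglyceride synthesis by acylating glycerol-3-phosphate, was at 8.28 and 8.32 against 4.98 and 5.60 (3.01 ± 0.29). Adh1, an alcohol dehydrogenase that oxidises retinol, was at 7.20 and 8.20 against 4.39 and 5.12 (2.95 ± 0.37). The iPS line was detected on 1 array for Gpat3 and for Adh1. Fbp2, a gluconeogenic fructose bisphosphatase, rose by 2.27 ± 0.36. Alox12, a lipoxygenase of arachidonic acid, was at 7.89 and 8.33 against 5.30 and 5.92, and Slc22a13b, of the organic anion transporter family, rose by 2.52 ± 0.37. Fxyd4, a regulator of the sodium pump, was undetected in the iPS line and at least 4.33-fold higher. Slc38a4, an imprinted amino acid transporter, was at least 2.66-fold higher.

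Among regulators of transcription, Otx2, a homeobox factor of the formative epiblast and the forebrain, was at 9.08 and 9.04 in the low clone and 6.39 and 6.65 in the iPS line. It rose by 2.55 ± 0.25, or 5.85-fold (adjusted p = 0.00681), and ES cells lay with the iPS line at a mean of 6.34. Msc (musculin), a bHLH repressor, rose by 2.36 ± 0.43. Rhox9, of the homeobox cluster on chromosome X, was at 7.69 and 8.79 against 5.49 and 6.11 (2.44 ± 0.39). Khdc3 (Filia), of the maternal complex of oocytes, was at 11.27 and 10.41 against 7.96 and 8.48 (2.62 ± 0.33), with ES cells between the lines at 9.34. Dkkl1, related to the Dickkopf proteins, rose by 2.36 ± 0.24, Agrp, an antagonist of melanocortin receptors, by 2.32 ± 0.29, the calcium-binding Gca by 2.28 ± 0.19 and the PDZ protein Gipc2 by 2.40 ± 0.24.

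The largest fall among the named genes was that of Fstl1, a secreted follistatin-like glycoprotein that binds BMP ligands. It was at 5.65 and 5.38 in the low clone and 10.27 and 9.73 in the iPS line, a fall of 4.48 ± 0.25 or 22.4-fold (adjusted p = 0.00184). ES cells were at a mean of 8.66, nearer to the iPS line. Other secreted or matrix-related proteins were lower too. Dkk3, related to Dickkopf Wnt antagonists, fell by 2.51 ± 0.26. Pdgfc, a platelet-derived growth factor, was undetected in the low clone and at least 3.97-fold lower. Lgals3 (galectin-3), a sugar-binding lectin, was at 9.85 and 9.13 against 12.04 and 11.26 (-2.16 ± 0.37), and the lysosomal peptidase Ctsc at 7.78 and 7.59 against 9.61 and 10.09 (-2.17 ± 0.33). Both were still well detected in the low clone.

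Other falls included genes of small GTPases and second messengers. Rerg, a Ras-like GTPase, was undetected in the low clone at 4.79 and 4.94 and lay at 8.07 and 7.72 in the iPS line, at least 7.11-fold lower. Arhgdib, a GDP-dissociation inhibitor, was at 7.23 and 6.16 against 10.08 and 9.25 (-2.97 ± 0.39). Its relative Arhgdig went the other way, from 7.67 and 7.41 in the iPS line to 9.25 and 8.82 in the low clone (1.49 ± 0.27). Adcy2, an adenylyl cyclase, was undetected in the low clone and at least 5.98-fold lower. The ecto-nucleotidase Nt5e (CD73) was at least 6.13-fold lower and Rassf4, of the Ras-association family, at least 3.47-fold lower. Atp2a3, a calcium pump of the endoplasmic reticulum, fell by 2.51 ± 0.20.

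Further falls covered transcription factors, transport and metabolism. Sall3, a zinc finger factor related to Sall4, was at 5.49 and 6.23 in the low clone and 9.03 and 8.54 in the iPS line (-2.93 ± 0.35). Hopx, a homeodomain protein that does not bind DNA, was undetected in the low clone at 5.04 and 4.69 and detected at 7.72 and 7.06 in the iPS line. Akr1c18, which inactivates progesterone, was at 5.50 and 4.84 against 8.66 and 8.03 (-3.18 ± 0.43), and ES cells were low with the low clone at 5.06. The pyrophosphate transporter Ank fell by 2.66 ± 0.23. Embigin (Emb), a partner of lactate transporters, fell by 2.34 ± 0.26, and the myosin light chain Myl4 fell by 2.35 ± 0.27. The sperm channel subunit Catsperz fell by 2.21 ± 0.29 and Accsl, related to plant ACC synthases, by 2.24 ± 0.34. Pcyt1b, Lpar4, Slc7a3, Tro and Bex4 were also among the 25 largest falls, and they all lie on chromosome X.

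**Figure D2:**
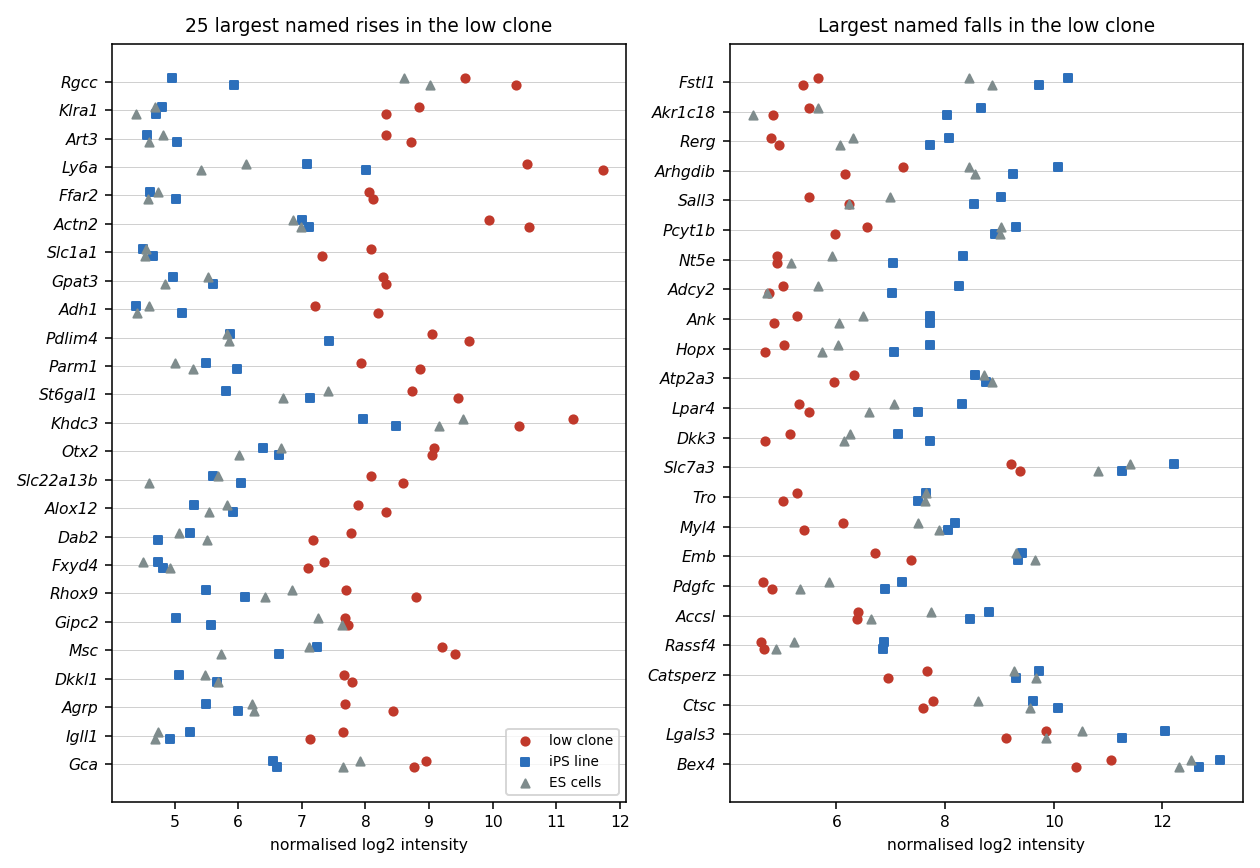
Normalised log2 intensity (horizontal axis) of the 25 largest named rises and of the largest named falls on each array, with circles for the low clone, squares for the iPS line and triangles for ES cells. The genes were picked for having no overlap between circles and squares, and the triangles lie with the iPS line for some genes (Otx2, Pcyt1b) and with the low clone for others (Akr1c18, Gipc2).

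Genes on chromosome X were lower as a group in the low clone. Of 348 X-linked genes tested, 23 were lower and 2 higher, that is 6.61% lower against 1.08% of all genes and 0.978% of the 9201 autosomal ones. The median X-linked difference was -0.46, with quartiles of -0.79 and -0.16, while the autosomal median was -0.01. Of the X-linked genes 84.8% had a negative difference, against 51.9% of autosomal genes. Each of the 4 pairings of a low clone array with an iPS array gave a negative X median: -0.55 and -0.49 against iPS array 1 and -0.35 and -0.36 against iPS array 2. Chromosome X held 2.76% of the tested genes and 16.8% of the lower ones. Both totals include genes with no known chromosome, which were 3077 of the tested genes and left 9554 placed. Both lines were set against the same ES arrays: the X median was 0.31 for the iPS line minus ES cells and -0.13 for the low clone minus ES cells. Without iPS array 1 the median was -0.35, and with the detection filter removed, which adds unexpressed genes, -0.10.

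**Figure D3:**
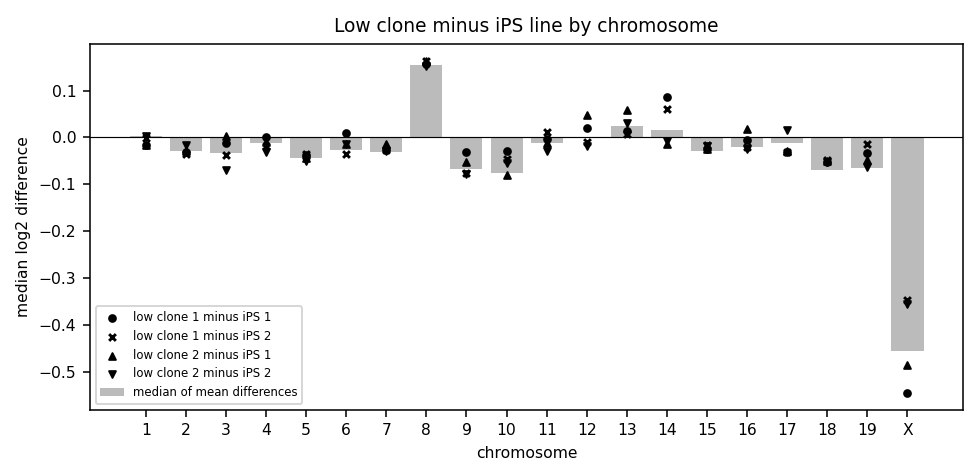
Median log2 difference, low clone minus iPS line (vertical axis), over the tested genes of each autosome and chromosome X (horizontal axis): bars give the median of the differences between line means, and the 4 symbols give each pairing of a low clone array with an iPS array. Chromosome X lies at -0.46 and chromosome 8 at 0.15, while all other bars lie between -0.08 and 0.03. Chromosome Y is not drawn.

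The shift covered the length of the chromosome. Ordered by position in RefSeq (GRCm38.p6), 326 of the X-linked genes were split into 4 equal stretches with medians of -0.40, -0.54, -0.46 and -0.50, and with 4, 2, 7 and 10 lower genes. Xist, the RNA that coats an inactive X, was undetected on every array by each of its 4 probes. Of the Y-linked genes, Ddx3y was detected on all 6 arrays by 1 of its 3 probes, at 7.56 and 7.59 in the low clone and 7.37 and 7.32 in the iPS line. Near the limit of detection, a Uty probe was detected on both arrays of both lines. An Eif2s3y probe was detected on both low clone arrays and neither iPS array. No probe for Kdm5d, Sry or Zfy1 was detected on any array. None of the 5 Y-linked genes tested passed, 3 of which were in the Y-linked list, and their median was 0.23. The number of X chromosomes in each line was not measured here.

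**Figure D4:**
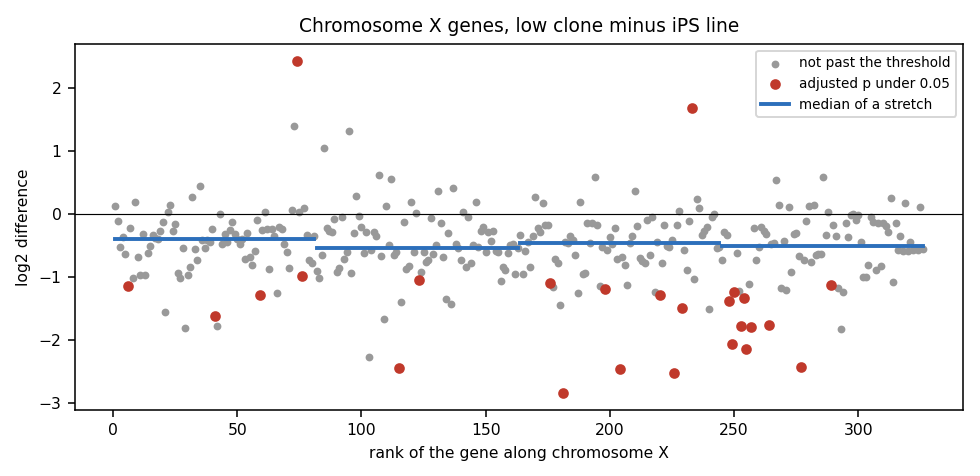
Log2 difference, low clone minus iPS line (vertical axis), of 326 chromosome X genes by their rank along the chromosome (horizontal axis), with called genes in red and the median of each of 4 stretches as a line. The stretch medians lie between -0.54 and -0.40, all below 0.

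The X-linked falls included a transporter, an enzyme and a receptor. Slc7a3, which carries arginine and lysine, was at 9.20 and 9.39 in the low clone and 12.22 and 11.27 in the iPS line (-2.45 ± 0.34). Pcyt1b, an enzyme of phosphatidylcholine synthesis, was at 6.57 and 5.98 against 9.30 and 8.92 (-2.84 ± 0.25, 7.15-fold lower). Each of these falls was several times the X median, and ES cells lay within about 1 log2 unit of the iPS line for both genes. Lpar4, a receptor for lysophosphatidic acid, fell by 2.51 ± 0.30, and Tro (trophinin), an adhesion protein, fell by 2.43 ± 0.18. The part of the X-wide shift in each of these falls was not tested.

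A run of neighbouring families of small X-linked proteins stood out after the values were seen. Bex4, of the brain-expressed X-linked family, was at 11.05 and 10.41 in the low clone and 13.06 and 12.67 in the iPS line (-2.13 ± 0.26). Bex2 was at 9.90 and 8.96 against 11.33 and 11.06 (-1.77 ± 0.31). Armcx2, of the armadillo-repeat X-linked family, was at 5.99 and 6.56 against 8.16 and 8.51 (-2.06 ± 0.24). In each the lines were well apart. Armcx1 fell by 1.37 ± 0.23, Gprasp1, a sorting protein of G-protein-coupled receptors, by 1.23 ± 0.22, and Tceal5, related to elongation factor TFIIS, was undetected in the low clone (-1.78 ± 0.27). In all, 2 of 3 Armcx, 2 of 4 Bex, 1 of 3 Tceal and the 1 Gprasp gene tested were lower, and they lie between ranks 248 and 260 along the chromosome. Of 9 Mage genes, 2 were lower, Magee1 (-1.29 ± 0.23) and Mageh1 (-1.12 ± 0.18). Several others rested on 1 array: Mageb4 was at 7.56 on iPS array 1 but 5.03 on iPS array 2, and Magea5 at 7.42 and 4.83. Further X-linked falls, also named after their values were seen, were the scaffold kinase Cask (-1.62), the exchange factor Dock11 (-1.28), the ubiquitin ligase Pja1 (-1.19), the lysosomal sulfatase Ids (-1.04), the kinase Prkx (-1.09) and the methyl-DNA-binding Zbtb33 (Kaiso, -0.97). The 2 X-linked rises were Rhox9 and Pof1b, an actin-binding protein (1.69), also picked after seeing the values.

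Chromosome 8 showed a smaller shift the other way. Of 528 genes tested 18 were higher and 2 lower (3.41% and 0.379%), 67.8% had a positive difference, and the median was 0.15, with 0.15 to 0.16 in all 4 array pairings. It held 4.18% of tested genes and 12.3% of the higher ones, with genes of no known chromosome in both totals. Against ES cells the chromosome 8 median was below 0 in both lines, -0.14 for the low clone and -0.32 for the iPS line. Among the higher genes were Agrp, Cdh3 and Nanos3. Chosen after their values were seen, the arylamine acetyltransferase Nat1 was at 7.82 and 7.31 in the low clone and 5.58 and 5.15 in the iPS line (2.20 ± 0.24), and Nat2, of the same enzyme family, at 8.79 and 8.66 against 7.22 and 7.22 (1.51 ± 0.19). Insl3, an insulin-like hormone, was at 8.31 and 8.59 against 6.05 and 6.68 (2.09 ± 0.30). The lines did not overlap for any of these, as for every called gene. Copy number was not measured here.

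Genes of other embryonic lineages changed in small numbers. Gata6, a zinc finger factor of primitive endoderm, was at 8.54 and 7.69 in the low clone and 5.95 and 6.28 in the iPS line, a rise of 2.00 ± 0.33 or 3.99-fold (adjusted p = 0.0324). Dab2, an endocytic adaptor of primitive endoderm, was at 7.77 and 7.17 against 5.24 and 4.74 (2.48 ± 0.29). Both low clone arrays were above both iPS arrays for each gene, as for every called rise. Of 11 extraembryonic endoderm genes tested these 2 were higher, none was lower, 8 had a positive difference and the median was 0.70. Over all 12631 genes 1.16% were higher and 1.08% lower, 6030 were positive and 6599 negative. Gata4, Sox17 and Foxa2, defining factors of endoderm, were undetected on both arrays of both lines, and Pdgfra differed by 0.24 ± 0.17. The summed level of 7 endoderm markers was 487 and 741 in the low clone and 239 and 250 in the iPS line. Gata6 and Dab2, the genes already called, made up most of the low clone sums, and undetected markers counted at background level.

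The epiblast genes were mixed. Otx2 was higher among 10 formative and primed epiblast genes, of which 7 were negative, and the median was -0.74. Grhl2, an epithelial factor of the formative state, was at 6.14 and 6.09 in the low clone and 8.63 and 8.22 in the iPS line, and did not pass (-2.31 ± 0.55, adjusted p = 0.0884). Pou3f1 (Oct6) differed by -0.88 ± 0.28 and follistatin (Fst) by -1.52 ± 0.39, and neither passed. Goosecoid (Gsc), of the primitive streak, was at 9.15 and 9.49 against 7.08 and 7.81 (1.88 ± 0.41, adjusted p = 0.0697), and none of 4 streak and mesoderm genes passed. The arrays of the lines did not overlap for Grhl2 or Gsc.

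Of 13 trophectoderm genes none passed, with a median of 0.54 and Tfap2c at 1.17 ± 0.30. Cdx2, the factor that specifies trophectoderm, lay near the limit of detection in both lines at 4.93 and 5.27 against 6.15 and 4.99, and its arrays overlapped. Of 9 germ cell genes Nanos3, an RNA-binding factor of primordial germ cells, was higher at 6.22 and 6.77 against 4.68 and 5.24 (1.53 ± 0.27). Of 5 neural progenitor genes none passed, with nestin (Nes) at 1.76 ± 0.41 and Sox11 at -1.42 ± 0.27. None of 8 fibroblast and feeder genes passed, with Acta2 at -2.67 ± 0.86 by its brightest probe and Col5a1 at -1.46 ± 0.30.

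Lymphoid and blood genes gave 3 rises. Besides Klra1, both parts of the surrogate light chain of pre-B cells were higher: Igll1 was at 7.65 and 7.12 in the low clone and 5.24 and 4.93 in the iPS line (2.30 ± 0.23), and Vpreb1 at 8.47 and 8.33 against 6.23 and 6.30 (2.14 ± 0.36). These 3 of 11 genes were higher, against 1.16% of all genes, none was lower, and the list's median was -0.24. The list was chosen with earlier results of these data known, and Klra1 was detected in the low clone alone, so the share adds no support. The T-cell receptor subunits had negative differences that missed the threshold: Cd3g was at 6.88 and 6.54 against 8.61 and 8.37 (-1.78 ± 0.35, adjusted p = 0.0516) and Cd3e at 6.88 and 6.87 against 8.01 and 7.72 (-0.99 ± 0.19, adjusted p = 0.0518). Of the 10 blood markers on the array, 5 were detected on both low clone arrays and 4 on both iPS arrays, and 5 were undetected on both arrays of each line, among them Ptprc (CD45), Klrd1, Ncr1 and Lyz2. Cd68, a macrophage marker, was at 7.72 and 7.72 in the low clone and 7.73 and 7.99 in the iPS line, and Csf1r, near the limit of detection, at 5.20 and 5.39 against 5.14 and 5.06. The summed level of the 10 was 782 and 859 in the low clone and 1669 and 1911 in the iPS line. Cd3d, Cd3g and Cd3e made up most of the iPS line sums.

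Among signalling lists, ERK-responsive genes gave 1 call and mostly negative differences. Spred1, an inhibitor of the Ras to ERK cascade, was at 7.20 and 6.77 in the low clone and 8.45 and 8.32 in the iPS line (-1.40 ± 0.24, adjusted p = 0.0346). Of 11 tested it alone passed, while 2.24% of all genes did. A negative difference was seen in 10 of the 11, against 6599 of all 12631 genes. The median was -0.86 against -0.02 for all genes. Egr1, the immediate early factor, was at 4.68 and 5.26 against 8.37 and 6.81 (-2.62 ± 0.74, adjusted p = 0.134), with its iPS arrays more than 1 unit apart. Of 14 genes of Nodal, BMP and TGF-beta signalling, 12 were negative, Fstl1 alone passed and the median was -0.53. Lefty1, a Nodal inhibitor, was at 5.59 and 8.02 in the low clone against 10.25 and 10.06 in the iPS line. Its low clone arrays lay more than 2 units apart and it missed the threshold (-3.35 ± 0.69, adjusted p = 0.0608), as did Lefty2 (-1.63 ± 0.51). None of 9 Wnt targets passed (median -0.46, Cdx1 at -0.83 ± 0.18) and none of 12 LIF and STAT3 genes did (median -0.05).

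Cell shape and adhesion genes held some of the largest changes. Actn2, the alpha-actinin of muscle Z discs, was at 9.94 and 10.57 in the low clone, and its iPS arrays averaged 3.20 ± 0.24 log2 units lower, which makes it 9.16-fold higher in the low clone. Pdlim4, an actin-bound PDZ and LIM protein, rose by 2.69 ± 0.47, whereas zyxin (Zyx), of focal adhesions, was at 8.52 and 8.39 against 10.57 and 10.02 (-1.84 ± 0.32). These 3 of 19 actin and muscle genes passed, against 2.24% of all genes, and the list's median was -0.07. P-cadherin (Cdh3) was at 6.73 and 7.47 against 4.94 and 5.15 (2.06 ± 0.26), and the collagen-binding integrin Itga1 was undetected in the iPS line and at least 1.74-fold higher. Those 2 of 25 adhesion and junction genes passed, 18 were positive (6030 of all 12631 genes were) and the median was 0.34. Itga1 was detected in the low clone alone, so its place among the 25 rests on the arrays where it was high. E-cadherin (Cdh1) did not pass (0.33 ± 0.19), nor did any of 18 extracellular matrix genes (median 0.28).

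Metabolic lists changed little apart from single members. Gpat3 was higher and Pcyt1b lower among 23 genes of glycerolipid and phospholipid synthesis (median 0.10). Of 16 amino acid transporters Slc1a1 and Slc38a4 were higher and Slc7a3 lower (median 0.30). Aldo-keto reductases had 2 of 9 lower, against 1.08% of all genes. Besides Akr1c18, Akr1b8 was at 6.50 and 6.22 in the low clone and 8.92 and 8.01 in the iPS line (-2.10 ± 0.34). Akr1b3, the aldose reductase, differed by -1.61 ± 0.32 (adjusted p = 0.0547), and the list's median was -0.83. Fbp2 alone passed among 19 glycolysis genes, of which 15 were negative (median -0.22), and Adh1 alone among 8 of retinoid metabolism (median -0.09). No gene passed among 19 of oxidative phosphorylation (median 0.04), 16 of cholesterol synthesis (0.12) and 15 of the ATF4 and ER stress response (0.30).

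Imprinted and chromatin genes gave few calls. Usp29, a paternally expressed gene next to Peg3, was undetected in the iPS line at 4.71 and 4.73 and at 6.27 and 6.75 in the low clone, at least 2.65-fold higher. Peg3, a zinc finger gene of the same imprinted domain on chromosome 7, was lower, at 6.94 and 7.11 against 8.75 and 8.41 (-1.55 ± 0.21). These neighbours went opposite ways, and none of the other genes among the 19 tested from the imprinted list passed (median -0.33 over the 19). Slc38a4, also imprinted and higher, was in the list of amino acid transporters and not in this one. Igf2 was at 5.76 and 5.60 against 8.12 and 8.08 without passing (-2.42 ± 0.71, adjusted p = 0.151). The arrays lay close together within each of these lines, and the standard error takes in the spread of the ES arrays too. None of 10 DNA methylation genes passed, with Dnmt3l, the cofactor of de novo methylation, at -1.59 ± 0.35 (adjusted p = 0.0743) and a median of -0.36. None passed among the 18 polycomb genes of the list (median -0.05), which does not hold Phc1, a called fall given further on. None passed among 14 of mitosis (-0.12), 15 of interferon and antigen presentation (-0.13) or 4 of the totipotent, 2-cell-like state (-0.21). Ly6a was 1 of 2 Ly6 genes tested.

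**Figure D5:**
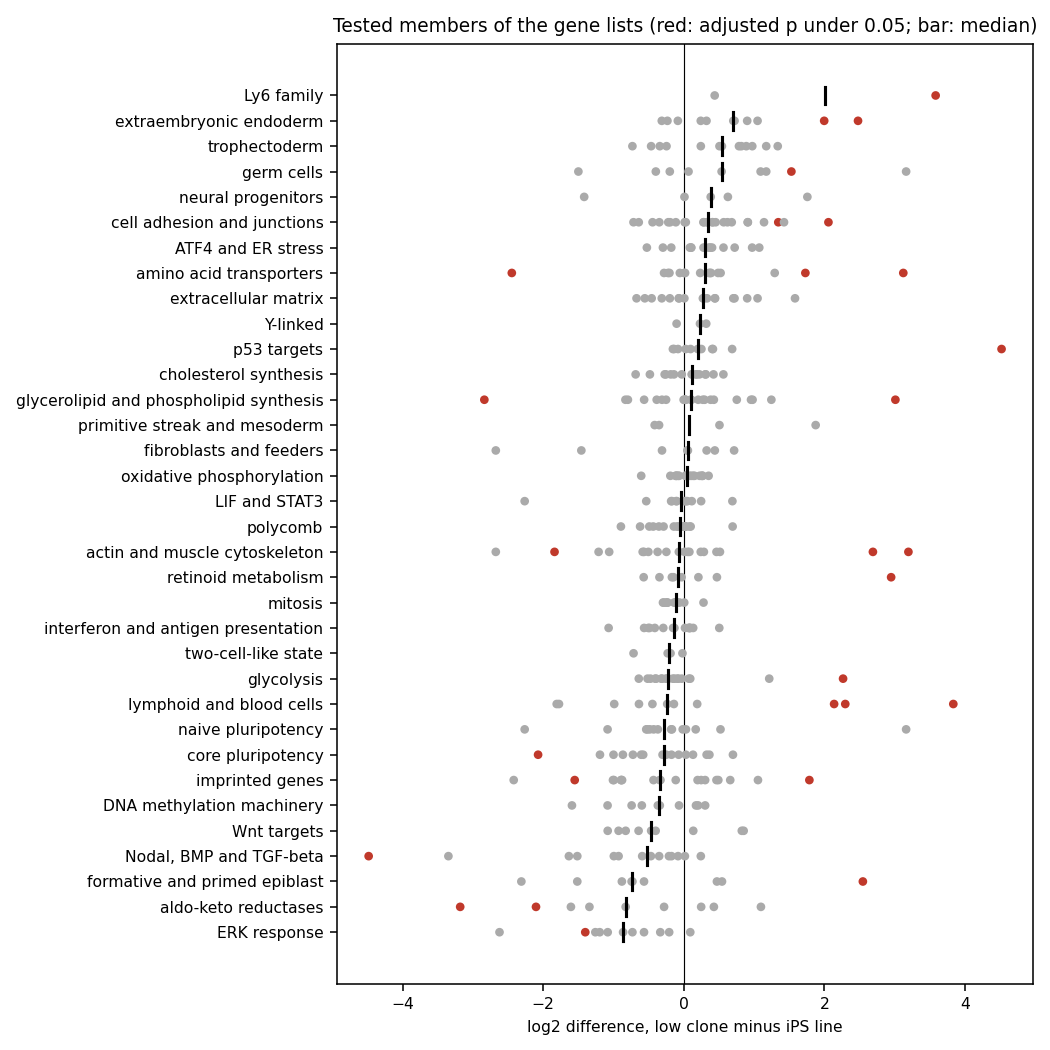
Log2 difference, low clone minus iPS line (horizontal axis), of each tested member of the gene lists (rows, ordered by median), with members past an adjusted p of 0.05 in red and a bar at each list's median over all its tested members, of which a few are not drawn. ERK-responsive genes lie at the bottom with a median of -0.86, and no list drawn holds more than 3 red points.

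Some called genes outside the named groups, picked after their values were seen, are given here as single results. Trim43a and Trim43b, tripartite motif genes of the preimplantation embryo, were undetected in the iPS line and at least 2.60-fold and 2.39-fold higher; close copies of such genes can share probe signal. The homeobox genes Crxos and Cphx1, expressed in early embryos, were at 10.91 and 10.51 against 9.24 and 9.17, and at 6.42 and 6.79 against 4.85 and 5.09, in that order. The kininogens Kng1 and Kng2 rose together (1.96 ± 0.29, and at least 2.28-fold). Among the falls, the Janus kinase Jak1 was at 6.52 and 6.44 in the low clone and 7.77 and 8.22 in the iPS line (-1.51 ± 0.23), while Jak3 rose by 1.23 ± 0.19. Phc1, a component of the polycomb complex PRC1 that the polycomb list lacks, was at 10.35 and 9.89 against 11.64 and 11.65 (-1.53 ± 0.21). Fzd5, a Wnt receptor, fell by 1.42 ± 0.22, the ephrin receptor Epha2 fell by 1.34 ± 0.19, the thrombin receptor F2r fell by 2.02 ± 0.25 and the heparan sulfatase Sulf1 fell by 2.09 ± 0.34.

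Since Oct4 binds the octamer ATGCAAAT, the promoter windows of called genes were searched for it on both strands, from 250 bases before to 50 after the RefSeq start. Of 8398 tested genes with such a window 141 held the octamer, or 1.68%. It was in none of 93 windows of higher genes and in 2 of 102 windows of lower genes (1.96%), close to the share of all genes. A missing match says only that these letters are not in this window. The 2 lower genes were Pcyt1b and Lurap1l (-1.16, chosen after its value was seen). Their windows are printed 5′ to 3′ on the plus strand of GRCm38.p6, with the octamer, or its reverse complement ATTTGCAT, in capitals, to show where the match lies. In Pcyt1b, at chrX:93674862-93675161, the match begins 38 bases before the start. In Lurap1l, at chr4:80910436-80910735, it begins 148 bases before it.
Pcyt1b: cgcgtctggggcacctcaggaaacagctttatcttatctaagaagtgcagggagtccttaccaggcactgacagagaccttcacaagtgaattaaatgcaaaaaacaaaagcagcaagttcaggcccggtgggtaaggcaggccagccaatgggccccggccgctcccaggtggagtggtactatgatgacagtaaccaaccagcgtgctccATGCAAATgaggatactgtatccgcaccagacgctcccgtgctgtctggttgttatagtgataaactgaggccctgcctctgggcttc
Lurap1l: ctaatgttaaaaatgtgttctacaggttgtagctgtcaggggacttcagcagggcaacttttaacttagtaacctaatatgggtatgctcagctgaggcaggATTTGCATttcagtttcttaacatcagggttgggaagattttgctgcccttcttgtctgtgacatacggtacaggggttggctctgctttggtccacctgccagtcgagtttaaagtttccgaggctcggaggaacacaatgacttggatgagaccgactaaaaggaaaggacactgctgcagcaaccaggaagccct
A match of letters is not evidence of binding, which was not measured here.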

How the data were processed

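Total RNA was hybridised to Illumina bead arrays. Per the file headers, each of 45281 probes has a non-normalised average intensity and a detection p-value on every array of the deposited table. The authors' software and its build were not stated in these sources. The detection p-values step by 1 in 936 negative controls. The authors' deposited series matrix holds log2 values of 16306 probes with identifiers that match no column of the other table, so it gave counts only. Its median is 8.046 on every array, so it is normalised between arrays; how was not given. All per-sample columns were matched to samples.

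Probe names were updated through RefSeq, by current symbol for 27760 probes and by synonym for 7994, while 9527 were left as named in the table. Chromosomes come from the deposited table. limma 3.58.1 in R 4.3.3 corrected background by nec, with an offset of 16, from the detection p-values and the 6 arrays were quantile normalised. Probes detected on at least 2 arrays were kept (18175) and each gene took its probe with the highest mean. A model of 3 line means was fitted to the 6 arrays with eBayes (3 residual and 4.27 prior degrees of freedom), with p-values adjusted by Benjamini-Hochberg over all 12631 genes. Adjusted p-values in the text are from this fit, and its standard errors take in the spread of the ES arrays too. The offset shrinks differences of dim probes, and the number of arrays limits precision. Chromosome and list medians are descriptions with no test.

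The genes named are the 25 largest named rises and falls with arrays that do not overlap between lines (48.8% of all genes meet that condition), detected on every array of the brighter line, every called member of the 35 lists, up to 3 further members per list with the smallest p, and Otx2, Gata6, Cdx2, Myc, Klf4, Sox2, Nanog, Esrrb, Pou5f1 and Zfp42. Exceptions are said to be chosen after their values were seen, and list members beyond the 3 given as values belong to these. The genes, lists and tests were chosen with earlier results of these data known, so the share of a list that passed adds no support. Alternatives changed the background, scaling, filter, probe choice, arrays and block. Some genes and 1 list are not reported here.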

Additional observations from a re-analysis of the deposited data

How the results depend on the processing

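Counts of higher and lower genes stayed within 1.5 times of 146 and 137 under the other background, scaling, probe and group settings, apart from the following. Without the detection filter they were 31 and 27, with detection on all 6 arrays 54 and 81, and in the series matrix values 97 and 101 unnamed probes. The 2 samples of each line share replicate numbers; same-numbered samples deviated together at r = 0.298 between the low clone and iPS line, 0.183 between the low clone and ES cells and 0.323 between the iPS line and ES cells. The labels do not say that the numbers pair samples, and each line has only 2. With the replicate block 344 and 305 genes passed, including all 283 and 25 of 100 uncalled named genes. With the 4 arrays of the low clone and iPS line alone, 18 of the 100 passed. A missed threshold in the text therefore holds for the fit of all 6 arrays without the block. Leaving out 1 array gave 0 to 189 higher and 0 to 205 lower genes, with 0 of the calls kept without low clone array 2. The chromosome X median was -0.1 without the filter, -0.346 with offset 50 and -0.296 without background correction, and -0.54 to -0.35 without 1 array. That of chromosome 8 was 0.059, 0.114 and 0.102 in the same 3 settings, 0.249 with median scaling, 0.173 with cyclic loess, 0.163 with the mean of probes, and 0.149 to 0.165 without 1 array. Uncalled genes that changed sign were Zfp42 (0.14 with median scaling, 0.029 with cyclic loess, -0.342 to 0.31 without 1 array), Sox2 (0.29 with the mean of probes) and, without 1 array, Tcstv1 (-1.0984 to 0.64), Tcstv3 (-1.6464 to 0.22) and Uty (-0.3986 to 0.20). Among called genes with a wide range over the settings were Slc1a1 (0.12 to 3.20) and Usp29 (0.40 to 1.81), with no change of sign. For both, the probe used was detected on the low clone arrays alone. Leaving out 1 of these dropped it below the filter, so the low ends come from another, dimmer probe of the gene. On the full set of arrays those probes differed by 0.03 (Slc1a1) and 0.83 (Usp29). The causes of the other changes were not tested. Signal near background limits the genes given as bounds.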
